A study of Caenorhabditis elegans with 18 samples.

Results

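The data are messenger RNA counts for the core genes of the RNA interference (RNAi) pathway of the nematode Caenorhabditis elegans: 3 RNA-dependent RNA polymerases (rrf-1, rrf-2 and rrf-3), 4 Argonautes (rde-1, ergo-1, hrde-1 and nrde-3), the double-stranded RNA binding protein rde-4 and the transport channel sid-1. These 9 genes were taken by their sequence names from the 20505 gene models counted in each library. PolyA RNA came from whole animals collected at the L4 larval stage, the last before adulthood. N2, the laboratory wild type, was compared with lin-65(n3441) and met-2(ok2307) mutants. Each strain was reared from hatching at 20 °C on bacteria carrying the empty vector (EV), or on a mix of these with bacteria for RNAi of cco-1, a subunit gene of mitochondrial cytochrome c oxidase. Each of the 6 groups had 3 libraries, 18 in all, so every group ate bacteria that carry an RNAi vector. The 2 mutants each carry 1 allele, and no group holds a transgene according to the labels.

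In RNAi, double-stranded RNA is cut by Dicer, with the help of RDE-4, into small RNAs that guide Argonaute proteins such as RDE-1 to matching messages. RNA-dependent RNA polymerases then copy the targeted message into further small RNAs, which amplifies the signal and loads a second set of Argonautes. Nuclear Argonautes, HRDE-1 in the germline and NRDE-3 in the soma, carry small RNAs to chromatin, where silencing goes along with methylation of histone H3 on lysine 9. SID-1 lets double-stranded RNA pass between cells, which is why feeding worms bacteria that make it silences genes through the body. met-2 encodes an H3K9 methyltransferase, and LIN-65 is a partner protein of it.

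Library totals ran from 5141303 to 19261705 counts, with a median of 14354766, and all 9 genes passed the filter on low counts, as did 15110 gene models in all. The knocked-down gene, cox-5B (the current name of cco-1), was lower on its RNAi in all 3 strains, by -1.28 in N2, -1.08 in lin-65 and -0.98 in met-2 on the log2 scale, with adjusted p of 0.00827, 0.0321 and 0.0407 by edgeR's quasi-likelihood test. Averaged over both diets, the lin-65 transcript was lower in lin-65 animals (log2 fold change -1.20 ± 0.26, SE) and the met-2 transcript in met-2 animals (-1.36 ± 0.24). The first lin-65 EV library carries N2 in its strain field and lin-65(n3441) in its title. Its lin-65 transcript stood at 6.53 CPM (counts scaled for library size), against 8.51 and 5.6 in the other two libraries and 12 to 14.2 in N2 on EV, and it was kept under its title. This library and the first met-2 cco-1 RNAi library stood farthest from the other libraries of their groups. The measure was the median absolute deviation over genes, scaled like an SD, of the log2 CPM difference from the mean of those libraries. It was 0.976 and 1.1 for them, against 0.26 to 0.829 for the other 16. Nothing in the labels says that replicates came from separate cultures, so p-values measure the spread between these libraries, which may be technical.

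Divided by exon length, the members covered a wide range of levels. Over the 18 libraries rde-4 had a mean of 84.5 CPM per kb and hrde-1 one of 29.1 CPM per kb. The per-length means of the others were 8.35 for rde-1, 7.25 for ergo-1, 5.56 for rrf-3, 4.6 for rrf-1, 2.89 for sid-1, 2.73 for nrde-3 and 1.67 for rrf-2. Among the 14940 tested genes with a known exon length, rde-4 lay at percentile 90.1 and rrf-2 at percentile 17. Between its lowest and highest group mean, rrf-2 spanned 11.9-fold and hrde-1 2.32-fold, while the other 7 genes spanned between 1.25-fold (sid-1) and 1.93-fold.

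**Figure D1:**
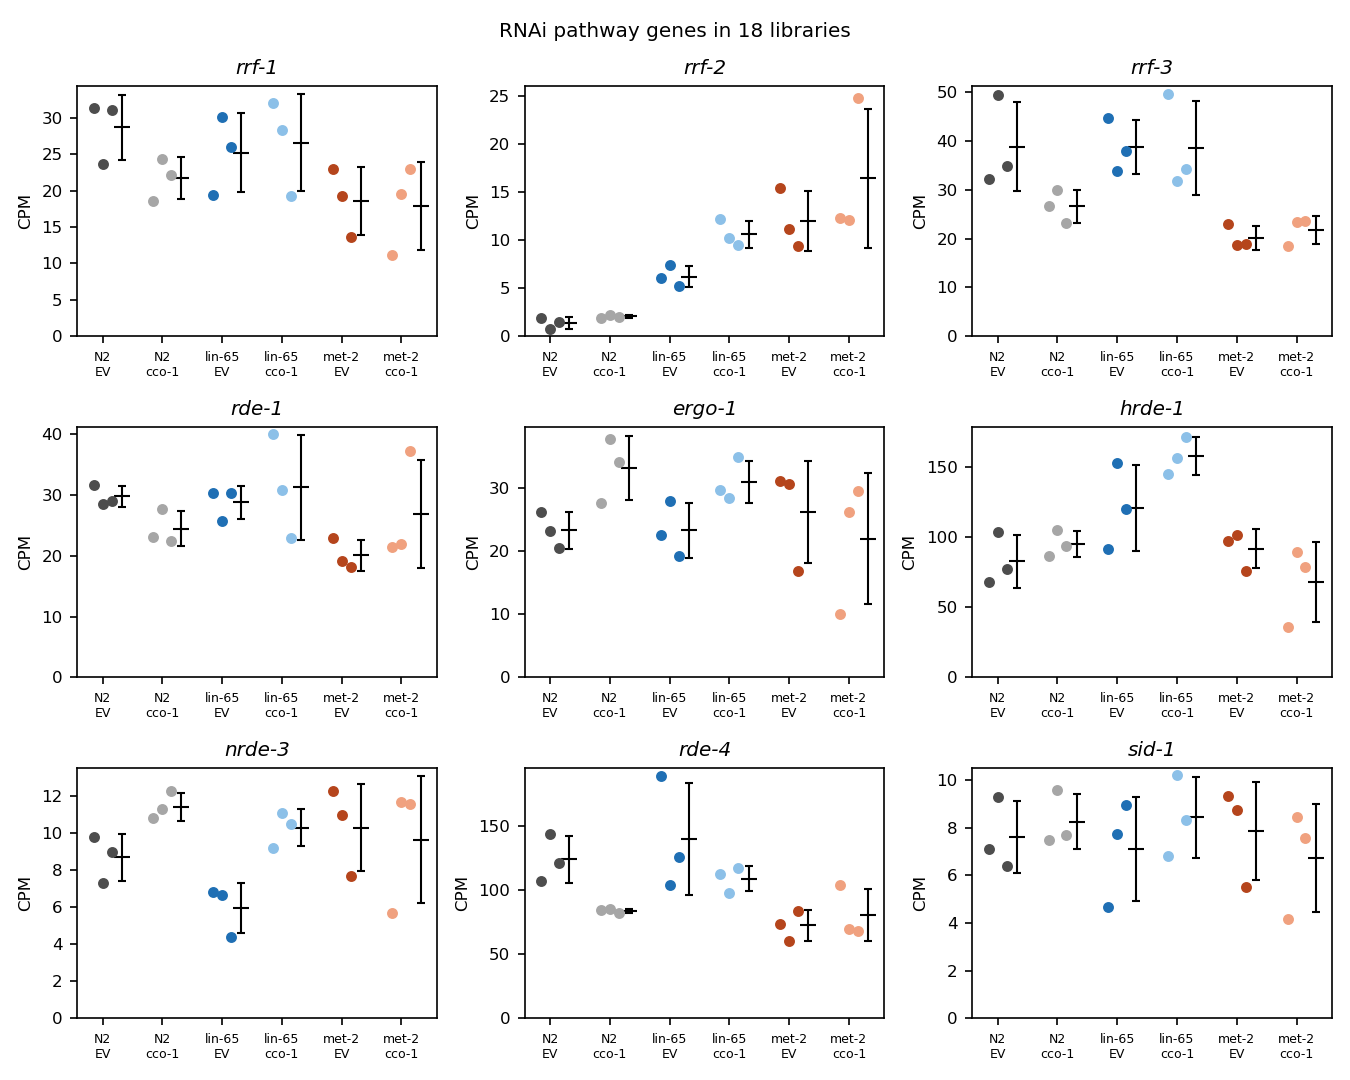
CPM of the 9 RNAi pathway genes in each of the 18 libraries (points), by strain and diet, with the mean and SD of the 3 libraries of each group (bar and whiskers); every vertical axis starts at 0. In rrf-2 the 6 N2 libraries sit at 0.745 to 2.18 CPM and the 12 mutant libraries at 5.22 to 24.8 CPM.

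Among the polymerases, rrf-2 differed most between the strains. It is a paralog of rrf-1 and rrf-3 whose own role is less well defined than theirs. It has the sequence name M01G12.12 and lies on chromosome I, from 12098664 to 12106112 on the minus strand, in the Ensembl annotation of WBcel235. In N2 on EV its 3 libraries had 1.93, 0.745 and 1.47 CPM, from 13, 11 and 27 counts. In N2 on cco-1 RNAi they had 1.94, 2.18 and 2.04 CPM. All 6 wild-type libraries were therefore low, and the 2 diets did not overlap although the gap between them was narrow.

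In lin-65 animals rrf-2 stood at 6.04, 7.38 and 5.22 CPM on EV and at 12.2, 10.2 and 9.53 CPM on cco-1 RNAi. In met-2 animals it stood at 15.4, 11.1 and 9.34 CPM on EV and at 12.3, 12.1 and 24.8 CPM on cco-1 RNAi. Every mutant library was above every N2 library, and on EV every met-2 library was above every lin-65 library. On cco-1 RNAi the lowest met-2 libraries overlapped the highest lin-65 library. The lin-65 EV library with the conflicting strain field lay between the other two of its group, at 6.04 CPM.

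On EV, rrf-2 was higher in lin-65 than in N2 by 2.22 ± 0.36 on the log2 scale (SE, 3 libraries each), a 4.67-fold difference with a 95% confidence interval of 2.74 to 7.94 and an adjusted p of 0.00279. It was the only member called there, where 1.42% of all tested genes were called at an adjusted p under 0.05. With the 2 groups fitted alone, the adjusted p of rrf-2 was 0.0873 and no member was called, where 0.361% of all genes were called. Averaged over both diets the difference was 2.29 ± 0.25, or 4.9-fold, with an adjusted p of 1.7e-05. Again rrf-2 was the 1 member called of 9, against 3.92% of all tested genes. By size it was number 86 among the 372 genes called higher in lin-65 over both diets.

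In met-2, rrf-2 was higher than in N2 on EV by 3.17 ± 0.37, or 8.97-fold, with an adjusted p of 4.86e-05. Over both diets the difference was 3.08 ± 0.25, or 8.43-fold, with an adjusted p of 2.49e-07. Both mutants are compared here with the same N2 libraries. These calls held in every fit that left out 1 library and under all 9 other ways of processing, apart from the lin-65 fit named above. In size rrf-2 was number 93 of the 3024 genes called higher in met-2 over both diets. The 2 mutants were also compared directly, a comparison added after the order of the rrf-2 levels had been seen. There rrf-2 was higher in met-2 by 0.78 ± 0.23, or 1.72-fold (interval 1.24 to 2.39, adjusted p = 0.01), and this call also held in all 18 fits without 1 library.

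Of the nearest protein-coding genes of rrf-2, both on its strand, 1 also differed between strains over both diets. Y47H10A.5, 676 bases away, had 3 to 3.32 CPM in N2 on EV. Its ranges on that diet were 5.15 to 7.5 CPM in lin-65 and 2.47 to 5.23 CPM in met-2. On EV alone it was called in neither mutant, with differences of 1.01 ± 0.31 in lin-65 (adjusted p = 0.159) and 0.31 ± 0.32 in met-2 (adjusted p = 0.461). Over both diets it was higher than in N2 by 0.96 ± 0.23 in lin-65 (adjusted p = 0.0236) and by 0.67 ± 0.23 in met-2 (adjusted p = 0.0302), with overlapping libraries and smaller differences than those of rrf-2. M01G12.14, 931 bases away, differed by -0.17 ± 0.27 in lin-65 and by -0.55 ± 0.27 in met-2, with adjusted p of 0.859 and 0.11. The mean of Y47H10A.5 went from 3.19 CPM on EV to 1.3 CPM on cco-1 RNAi in N2, and from 6.43 to 2.46 CPM in lin-65. In met-2 it went from 3.97 to 2.68 CPM, while the rrf-2 mean was higher on cco-1 RNAi in each strain. Whether reads of Y47H10A.5 and rrf-2 come from 1 transcript was not tested.

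rrf-3 moved the other way in met-2. This gene (F10B5.7, chromosome II, 8162465 to 8168651, plus strand) encodes the polymerase of the ERI complex, which starts an endogenous small RNA pathway, and worms that lack it respond more strongly to RNAi. It had 32.2, 49.3 and 34.9 CPM in N2 on EV and 44.7, 33.8 and 37.9 CPM in lin-65 on EV. In met-2 on EV it had 23, 18.6 and 18.9 CPM, below every library of the other two strains on that diet. With cco-1 RNAi the N2 libraries had 26.6, 30 and 23.1 CPM and the lin-65 libraries 49.6, 31.8 and 34.2 CPM. Those of met-2 had 18.4, 23.3 and 23.5 CPM. On this diet met-2 and N2 overlapped, and every lin-65 library stood above both.

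On EV, rrf-3 fell by 0.95 ± 0.23 on the log2 scale from N2 to met-2, with an adjusted p of 0.00718. It was 1 of 3 members called in that comparison, with rrf-2 higher and rrf-3 and rde-4 lower, where 30.5% of all tested genes were called. The summed level of 17 sperm genes on EV was lower in met-2 too, at 342 to 422 CPM against 790 to 1402 CPM in N2. So were those of 21 germline genes (1129 to 1274 against 1524 to 1903 CPM) and 14 oocyte genes (561 to 1109 against 1575 to 2575 CPM). The adult collagen sum was also lower, and the intestinal, body wall muscle, neuronal and hypodermal sums were higher. In whole-animal RNA fewer cells of a type and less RNA per cell cannot be told apart. Averaged over both diets rrf-3 fell by 0.62 ± 0.16 (adjusted p = 0.00673), and with rrf-2 it made 2 members called of 9 against 39.9% of all genes. The rrf-3 calls held under every alternative and without any 1 library, with a highest adjusted p of 0.0498 on EV. Against lin-65 over both diets rrf-3 was lower in met-2 by -0.88 ± 0.16 (adjusted p = 0.000431), with no overlap between the 6 and 6 libraries. In that comparison 4 members were called, and so were 42.5% of all tested genes. In lin-65 against N2 rrf-3 differed by 0.27 ± 0.16 over both diets (adjusted p = 0.482). It overlaps T05C12.11, which had a mean of 2.97 CPM in N2 on EV, by 37 bases on the opposite strand, and whether the counting used strand is not known here. Its neighbour emb-27, 294 bases away on the opposite strand, was also lower in met-2 on EV, by -1.35 ± 0.31 (adjusted p = 0.00459).

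rrf-1 (F26A3.8, chromosome I) is the polymerase that amplifies small RNAs in somatic cells during RNAi by feeding. On EV it had 31.4, 23.6 and 31.1 CPM in N2, against 19.4, 30.1 and 26 CPM in lin-65. The met-2 libraries had 23, 19.2 and 13.7 CPM. All met-2 libraries were thus below all N2 libraries on this diet, and the highest met-2 value and the lowest N2 value were close. The difference was -0.62 ± 0.29 (log2), which did not pass the threshold (adjusted p = 0.11). It passed in 4 of the 9 alternatives, with the lowest adjusted p of 0.00172 after removal of the trend with transcript length. Over both diets it was -0.45 ± 0.21 (adjusted p = 0.0894). In lin-65 against N2 over both diets rrf-1 differed by 0.05 ± 0.20, with an interval from -0.38 to 0.48.

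The germline polymerase ego-1, which lies 563 bases from rrf-1 on the same strand, completes the family. Its mean over both diets was 13.2 CPM in met-2, 22.9 CPM in N2 and 26.2 CPM in lin-65, and it fell by 0.78 ± 0.18 from N2 to met-2 (adjusted p = 0.0025). Of the summed per-length level of the 4 polymerase genes, rrf-2 held 1.7% ± 0.743 (SD, n = 3) in N2 on EV and 2.94% ± 0.172 in N2 on cco-1 RNAi. Its share was 7.32% ± 0.91 and 10.9% ± 0.256 in lin-65 on the same diets. In met-2 its share was 19.7% ± 1.05 on EV and 25.2% ± 5.99 on cco-1 RNAi. In single libraries the share ran from 0.89% to 3.14% in N2, from 6.55% to 11.1% in lin-65 and from 18.7% to 30.5% in met-2, so the 3 strains did not overlap in this measure. A share rises both with more rrf-2 and with less of the other polymerases, and in met-2 rrf-3 and ego-1 were lower as well.

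**Figure D2:**
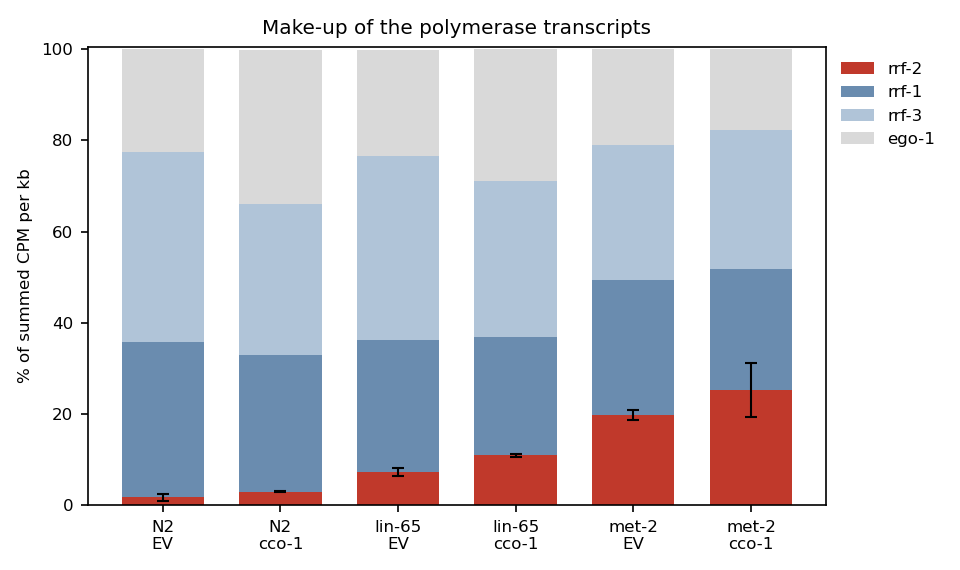
Share (%) of each of the 4 RNA-dependent RNA polymerase genes in their summed CPM per kb, as the mean of 3 libraries for each strain and diet; whiskers give the SD of the rrf-2 share. The rrf-2 share goes from 1.7% in N2 on EV to 25.2% in met-2 on cco-1 RNAi.

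Of the Argonautes, hrde-1 (C16C10.3, chromosome III, 4172337 to 4176159, minus strand) had the highest levels. It binds small RNAs in germline nuclei and is needed for silencing to be inherited. In N2 it had 67.8, 104 and 77.1 CPM on EV and 86.8, 105 and 94 CPM on cco-1 RNAi. In lin-65 it had 91.7, 153 and 120 CPM on EV and 145, 157 and 172 CPM on cco-1 RNAi. In met-2 it had 97.5, 102 and 76 CPM on EV and 35.7, 89.4 and 79 CPM on cco-1 RNAi. The 3 lin-65 libraries on cco-1 RNAi were above every N2 and every met-2 library, and the lowest value of all came from the met-2 library that stood farthest from its group.

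In lin-65 against N2 over both diets hrde-1 differed by 0.64 ± 0.20 (log2), with an adjusted p of 0.0975. It passed in 6 of the 9 alternatives, and without the first met-2 cco-1 RNAi library its adjusted p was 0.0173. In met-2 against N2 it differed by -0.17 ± 0.20, with an interval from -0.60 to 0.25. Directly compared over both diets, it was lower in met-2 than in lin-65 by -0.81 ± 0.20, or 0.57-fold (adjusted p = 0.00392), in all 9 alternatives and all 18 fits without 1 library. The neighbour C16C10.13, 280 bases away on the opposite strand, was called higher in lin-65 over both diets, at 3.16 against 1.07 CPM (log2 fold change 1.52 ± 0.33, adjusted p = 0.0109). That is a small number of reads beside those of hrde-1, and strand use in the counting is not known here.

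nrde-3 (R04A9.2, chromosome X), the nuclear Argonaute of somatic cells, had 9.79, 7.32 and 8.99 CPM in N2 on EV and 10.8, 11.3 and 12.3 CPM on cco-1 RNAi. In lin-65 it had 6.82, 6.64 and 4.39 CPM on EV and 9.18, 11.1 and 10.5 CPM on cco-1 RNAi. Every RNAi library was above every EV library in these 2 strains. For this and for the other members whose diets separate, the share of all genes that do so is not given here. In met-2 it had 12.3, 11 and 7.71 CPM on EV and 5.69, 11.7 and 11.6 CPM on cco-1 RNAi, and the diets overlapped. The diet difference was 0.40 ± 0.28 in N2, 0.79 ± 0.29 in lin-65 and -0.10 ± 0.28 in met-2 (log2), none of which passed the threshold. Averaged over the strains it was 0.36 ± 0.16 (adjusted p = 0.273), and without the first met-2 cco-1 RNAi library 0.45 (adjusted p = 0.0461).

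ergo-1 (R09A1.1, chromosome V) is the Argonaute that carries endogenous small RNAs made by the ERI complex. It had 20.5 to 26.2 CPM in N2 on EV and 27.7 to 37.8 CPM in N2 on cco-1 RNAi. In lin-65 it had 19.3 to 28 CPM on EV and 28.5 to 34.9 CPM on cco-1 RNAi. The diets therefore did not overlap in either strain, while in met-2 the ranges were 16.8 to 31.1 and 10.1 to 29.5 CPM. The diet difference was 0.51 ± 0.32 in N2 and 0.41 ± 0.32 in lin-65 (log2), below the threshold (adjusted p of 0.396 and 0.59). It overlaps pei-2 on the opposite strand by 17 bases, a gene with 13.8 CPM in met-2 and 30.9 CPM in N2 on EV. Between strains over both diets ergo-1 differed from N2 by -0.05 ± 0.23 in lin-65 and by -0.21 ± 0.23 in met-2.

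rde-1 (K08H10.7, chromosome V) is the Argonaute that first binds the small RNAs cut from double-stranded RNA taken up with food. It had 31.7, 28.5 and 29.1 CPM in N2 on EV and 23, 19.1 and 18.2 CPM in met-2 on EV, with no overlap. The difference of -0.57 ± 0.25 had an adjusted p of 0.0867 and passed in 4 of the 9 alternatives. On cco-1 RNAi N2 had 22.5 to 27.8 CPM, each library below those of N2 on EV, with a diet difference of -0.28 ± 0.25 (adjusted p = 0.533). On that diet met-2 had 21.5 to 37.2 CPM, and over both diets met-2 differed from N2 by -0.22 ± 0.17 (adjusted p = 0.342). In lin-65 rde-1 had 25.7 to 30.4 CPM on EV and 22.9 to 40.1 CPM on cco-1 RNAi, and it differed from N2 by 0.15 ± 0.17 over both diets.

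rde-4 (T20G5.11, chromosome III, 10217302 to 10218646, minus strand) encodes the double-stranded RNA binding partner of Dicer and has the shortest transcript of the 9, at 1204 bases. In N2 it had 107, 144 and 121 CPM on EV and 84.3, 85.1 and 81.9 CPM on cco-1 RNAi, so that every RNAi library was lower. In lin-65 it had 189, 104 and 126 CPM on EV and 113, 98.2 and 117 CPM on cco-1 RNAi. In met-2 it had 73.4, 60.2 and 83.8 CPM on EV and 104, 69.9 and 68.2 CPM on cco-1 RNAi. On EV all met-2 libraries were below all libraries of the other two strains. The highest values in lin-65 on EV and in met-2 on cco-1 RNAi came from the 2 libraries that stood farthest from their groups.

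On EV rde-4 fell by 0.78 ± 0.24 from N2 to met-2 (adjusted p = 0.0207). This call was lost without the second N2 EV library (-0.66, adjusted p = 0.0882) and without the first (-0.84, adjusted p = 0.0549) or the second (-0.66, adjusted p = 0.0861) met-2 EV library, with folds of similar size. It was also lost, at a log2 fold change of -0.43, after removal of the trend with 3' UTR length (adjusted p = 0.0572). Over both diets the difference was -0.42 ± 0.17 (adjusted p = 0.0553), and -0.56 without the 2 libraries that stood apart (adjusted p = 0.000721). Against lin-65 over both diets rde-4 was lower in met-2 by -0.69 ± 0.17 (adjusted p = 0.00303), a call that every alternative and every fit without 1 library kept.

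sid-1 (C04F5.1, chromosome V), the channel for double-stranded RNA between cells, differed least. Its group means lay between 6.73 CPM in met-2 on cco-1 RNAi and 8.43 CPM in lin-65 on cco-1 RNAi, and each group overlapped its neighbours in that order. The lowest library had 4.18 CPM and the highest 10.2 CPM, from 40 to 159 counts. Over both diets it differed from N2 by -0.02 ± 0.22 in lin-65, with an interval from -0.49 to 0.44, and by -0.12 ± 0.22 in met-2, with an interval from -0.59 to 0.35.

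**Figure D3:**
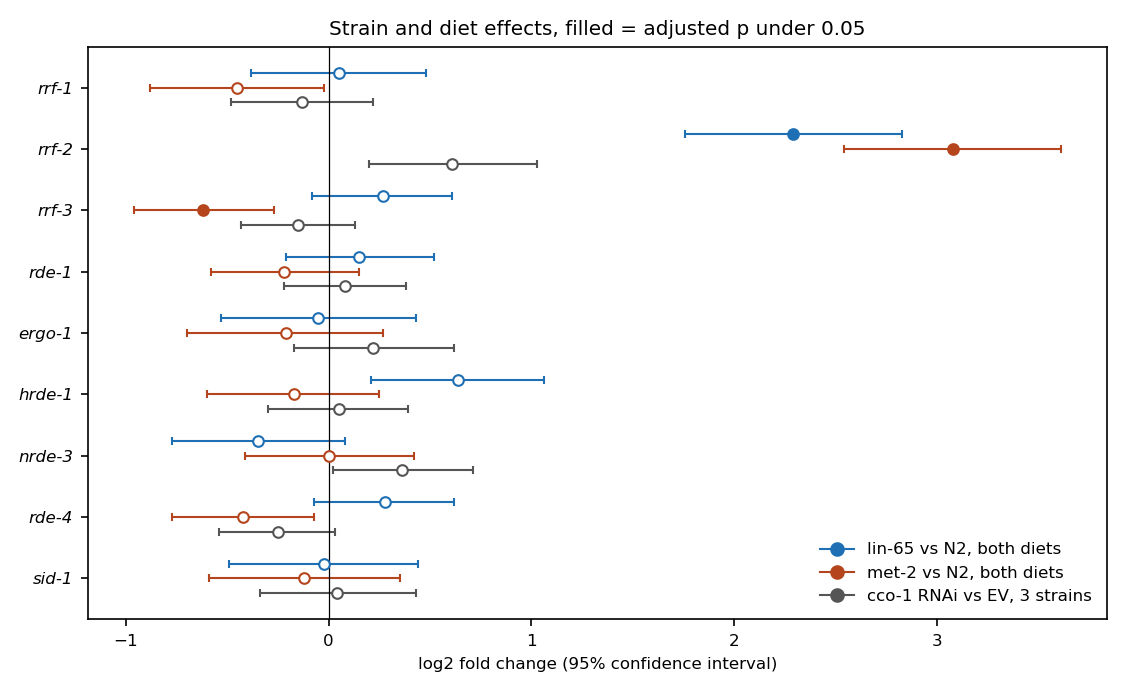
Log2 fold changes of the 9 genes with 95% confidence intervals (edgeR's quasi-likelihood fit of 18 libraries) for lin-65 against N2 and met-2 against N2 over both diets and for cco-1 RNAi against EV over the 3 strains; filled points have an adjusted p under 0.05. The rrf-2 points lie at 2.29 and 3.08, rrf-3 in met-2 at -0.62, and every cco-1 RNAi point is open.

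No member passed the threshold in response to cco-1 RNAi in any strain. In N2 the lowest adjusted p among the 9 was 0.235 and 0.841% of all tested genes were called. In lin-65 the lowest was 0.268, with 0.715% of all genes called, and in met-2 it was 0.649, with 1.11% called. Averaged over the 3 strains the lowest was 0.0994, for rrf-2, with 4.08% called. At an unadjusted p under 0.05 the counts of members were 2 in N2, 2 in lin-65, 0 in met-2 and 2 averaged. Of all 15110 tested genes, 2712, 1872, 1481 and 2550 were under it in the same comparisons. DESeq2 called 0 members within each strain and 1 averaged, rrf-2. It called 3.76% of all genes in N2, 1.88% in lin-65, 2.22% in met-2 and 5.88% averaged.

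The averaged response of rrf-2 was 0.61 ± 0.20 (log2), made of 0.62 ± 0.38 in N2, 0.77 ± 0.32 in lin-65 and 0.45 ± 0.31 in met-2. In N2 and in lin-65 every RNAi library was above every EV library, and in met-2 the diets overlapped. The share of all genes whose diets separate in this way is not given here. Its adjusted p was 0.0994, but 0.0477 by DESeq2 and 0.0344 without the first met-2 cco-1 RNAi library. In N2, rde-4 differed by -0.57 ± 0.24 and rrf-3 by -0.55 ± 0.23, with separate libraries in both and adjusted p of 0.235 and 0.24. For rde-4 this value was 0.0303 with the N2 groups fitted alone and 0.0217 without the 2 libraries that stood apart, fits that called 20.4% and 18.5% of all genes.

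The responses of the mutants were set against that of N2 as a difference of differences. Of the 9 members 0 passed in lin-65 minus N2 and 0 in met-2 minus N2, where 0% of all tested genes were called in either. Over all genes 480 and 2603 had an unadjusted p under 0.05, and DESeq2 called 5 and 153. Among members the unadjusted count was 0 for lin-65 and 1 for met-2, rde-4, which went from -0.57 in N2 to 0.16 in met-2, a difference of 0.73 ± 0.33 (adjusted p = 0.284). For rrf-2 the difference was 0.14 ± 0.51 in lin-65, with an interval from -0.93 to 1.21, and -0.18 ± 0.48 in met-2, with an interval from -1.20 to 0.84.

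The marker lists of other cells are given beside 39.9% of all genes called in met-2 against N2 over both diets, 3024 higher and 3004 lower. In that comparison 9 of 17 sperm genes, 15 of 21 germline genes and 14 of 14 oocyte genes were lower in met-2 and 0 of each were higher. The intestinal list had 6 of 11 tested genes higher, the neuronal list 7 of 14 and the hypodermal list 5 of 12, with none lower. In body wall muscle 5 of 14 were higher and 1 lower, and of 7 adult collagens 1 was higher and 3 lower. The sperm sum in lin-65 on EV was 875 to 2177 CPM. The summed level of the germline genes on EV was 1524 to 1903 CPM in N2, 1675 to 1910 CPM in lin-65 and 1129 to 1274 CPM in met-2. No marker gene of these lists was at 0 throughout a group. In lin-65 against N2 over both diets 1 germline gene was higher and no sperm or oocyte gene was called.

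The 6 met-2 libraries, with sperm sums of 192 to 681 CPM, had rde-4 at 60.2 to 104 CPM and rrf-3 at 18.4 to 23.5 CPM. In N2 the sperm sum was 535 to 789 CPM on cco-1 RNAi and 790 to 1402 CPM on EV, ranges that adjoin, beside the separate rde-4 and rrf-3 values. Of the 17 sperm genes 0 passed the threshold there (median log2 fold change -0.47). The library with the highest sperm sum, the first of lin-65 on EV at 2177 CPM, had the highest rde-4 level, 189 CPM. The first met-2 cco-1 RNAi library had the highest sperm sum of the 6 met-2 libraries, 681 CPM, the highest rde-4 level of these, 104 CPM, and the lowest rrf-3 level, 18.4 CPM. rrf-2 was highest in met-2, where the sperm sum was low. It was also higher in lin-65 than in N2, where the median log2 fold change of the sperm genes was 0.50 and 0 of 17 were called. Against N2 over both diets, the medians of the neuronal, intestinal, hypodermal and muscle lists were 0.69, 0.43, 0.46 and 0.26 in met-2. In lin-65 they were -0.13, -0.08, -0.24 and -0.23. The germline sum ran from 947 to 1321 CPM in met-2 libraries and from 1524 to 2002 CPM in those of N2 and lin-65. The part of cell composition in the member differences was not tested.

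**Figure D4:**
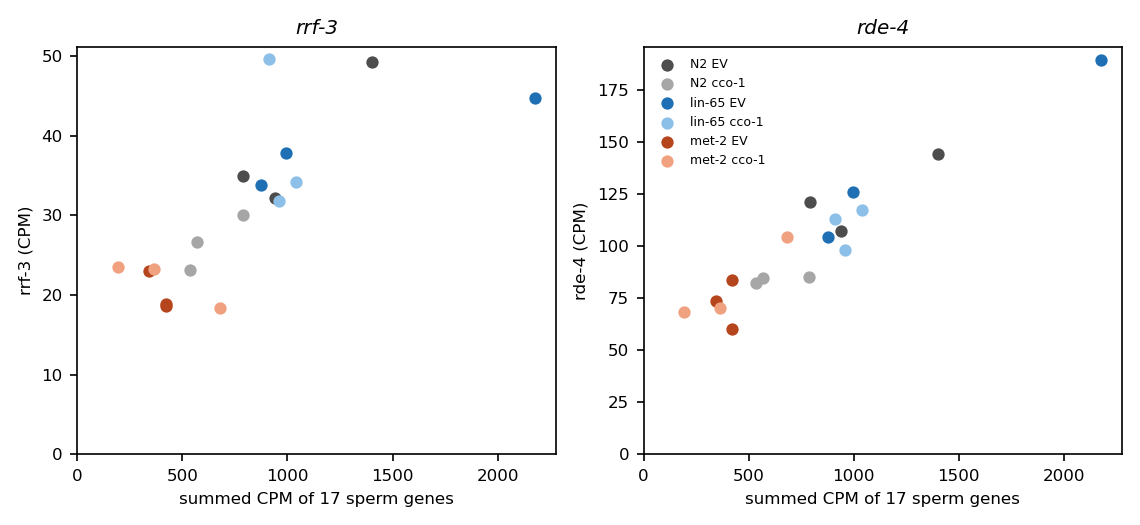
CPM of rrf-3 (left) and rde-4 (right) against the summed CPM of 17 sperm genes, with 1 point for each of the 18 libraries, coloured by strain and diet; all axes start at 0. The 6 met-2 libraries lie at 192 to 681 CPM of sperm genes, and the library at 2177 CPM has 189 CPM of rde-4.

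The rest of the pathway was read from 11 lists with 79 genes besides the members, of which 78 were tested. In met-2 against N2 over both diets 3 were higher and 31 lower, 43.6% beside 39.9% of all genes, with a median log2 fold change of -0.29 against 0.06 over all genes. On EV 5 were higher and 24 lower, 37.2% beside 30.5% of all genes, with a median of -0.34. By list over both diets, members included, 6 of 9 tested genes for piRNA production were lower, as were 4 of 7 H3K9 methylation genes (met-2 itself among them), 4 of 9 of the Mutator complex and 2 of 5 nuclear RNAi partners. With 3 of 11 in the WAGO clade of Argonautes, 3 of 9 in the ERI complex and 3 of 11 in Dicer and double-stranded RNA handling, those lists lay below the share over all genes. No gene of these lists was higher. Argonautes outside the WAGO clade had 1 of 11 higher and 4 lower, polymerases 1 of 4 higher and 2 lower, microRNA genes 2 of 9 higher and 2 lower, and systemic RNAi, sid-1 included, 1 of 8 higher and 0 lower. In lin-65 against N2 over both diets 2 of the 78 genes were higher and 1 lower, 3.85% beside 3.92% of all genes. Their median log2 fold change was 0.06, against 0.03 over all genes.

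The lower pathway genes in met-2 included wago-2, a WAGO clade Argonaute (F55A12.1 in the counts), at 25.3 CPM against 131 CPM in N2 over both diets (-2.20 ± 0.24, adjusted p = 4.67e-06). prg-2, a close copy of the piRNA Argonaute prg-1, stood at 54.5 against 190 CPM (-1.78 ± 0.19, adjusted p = 2.72e-06), while prg-1 stood at 162 against 133 CPM (0.29 ± 0.17, adjusted p = 0.18). Reads may be split between these 2 copies in ways the sources used here do not describe. pid-1, needed to make piRNAs, fell by 0.96 ± 0.13 and rde-8, a nuclease that cuts RNAi targets, by 1.10 ± 0.15. hrde-2, which acts with hrde-1 in inherited silencing, fell by 1.02 ± 0.16, and on EV the microRNA processing gene drsh-1 fell by 1.38 ± 0.23. Directly against lin-65, the 6 pathway genes with the smallest p were prg-2, pid-1, rde-8, drsh-1, the Argonaute gene alg-3 (-1.55 ± 0.20) and pash-1, the partner of drsh-1 (-1.11 ± 0.15), all lower in met-2.

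The 3 pathway genes higher in met-2 over both diets were sid-2, the intestinal receptor for double-stranded RNA from food (1.01 ± 0.19, adjusted p = 0.000619), and the microRNA genes alg-1 (1.61 ± 0.40) and ain-1 (0.74 ± 0.24). In lin-65 the 2 higher genes were nrde-2, a nuclear RNAi factor, at 154 against 76.1 CPM (1.02 ± 0.21, adjusted p = 0.00848), and prg-1, at 223 against 133 CPM (0.73 ± 0.17, adjusted p = 0.0177). The lower gene was lin-65 itself. In response to cco-1 RNAi over the 3 strains 1 of the 78 genes was called, 1.28% beside 4.08% of all genes. This was wago-2, at 51.6 CPM on RNAi and 104 CPM on EV (-0.69 ± 0.19, adjusted p = 0.0481). In met-2 its mean was 24.1 CPM on EV and 25.3 CPM over both diets, against 190 and 131 CPM in N2. The averaged fall was thus not seen in the met-2 means.

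For each member the 3 most similar genes were taken by Pearson's r of log2 CPM over the 18 libraries, among 10553 genes with a mean of at least 5 CPM. These values describe the libraries, which share strains, depth and cell makeup. Nearest to rrf-2 were F15D4.5 (r = 0.93), F33H2.3 (0.93) and scrm-4 (0.92). rrf-3 was nearest to the DNA helicase gene wrn-1 (0.97), C37C3.1 (0.95) and the nuclease gene fan-1 (0.93). rde-4 was nearest to enee-1, Y66D12A.16 and msp-76, a major sperm protein gene, each at 0.95.

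Among the rest, rrf-1 was nearest to the nuclear pore gene npp-14 (0.91), pbrm-1 (0.89) and T11G6.5 (0.89). rde-1 was nearest to the kinase gene mtk-1 (0.90), sur-2 (0.89) and D2096.12 (0.87). For ergo-1 these genes were hsr-9 (0.95), tpxl-1 (0.94) and rin-1 (0.93), and for hrde-1 wht-2 (0.91), ect-2 (0.90) and hpo-35 (0.90). nrde-3 had acs-19 (0.84), lin-41 (0.81) and atad-3 (0.80). For sid-1 they were evl-18 (0.86), Y57A10A.31 (0.86) and kin-4 (0.85), and without the 2 libraries that stood apart these values were 0.62, 0.62 and 0.61.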

How the data were processed

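Counts were deposited by the authors as whole-number reads per gene model in 1 table for each of 18 libraries. Per the labels' protocols, polyA RNA was taken with oligo-dT beads and libraries were made with a ScriptSeq kit. Per the submitters' processing notes, Bowtie 0.12.7 and DESeq were used. For the build, annotation, strand setting and reads with several matches, nothing is given in the sources used here. Of 20505 gene models 20066 matched the Ensembl 115 annotation of WBcel235 by sequence name, and the other 439 held 0.163% of counts. Lengths, names and coordinates come from that annotation.

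Groups were taken from sample titles. edgeR 4.0.16 (R 4.3.3) fitted all 18 libraries with TMM scaling, its default filter by group and robust quasi-likelihood dispersion, with Benjamini-Hochberg adjustment over 15110 genes and a threshold of 0.05. There were 10 comparisons, and 1 added after the data were seen (met-2 against lin-65). CPM use TMM-scaled totals, and per-length levels divide by exon length. Of the plain library totals 3 counts are 0.156 to 0.584 CPM, which covers counting error only. Alternatives were RLE scaling, no filter, a mean of at least 1 CPM, DESeq2 1.42.0, a replicate block, 16 libraries, removal of a lowess trend with transcript or 3' UTR length, the compared groups alone, and each library left out.

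The 9 genes, the pathway and marker lists and the tests were chosen with earlier results of these data known. Named were all members, up to 6 pathway genes for each comparison with the smallest p past the threshold, the 2 mutated genes and cox-5B, and the 3 most similar genes of each member. ego-1, alg-1, ain-1, sid-2, prg-1 beside prg-2, the neighbours and drsh-1 on EV alone were also described, in part after their values were seen. No sequence is shown, since none of these genes' sequences was among the sources used here.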

Additional observations from a re-analysis of the deposited data

How the results depend on the processing

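Over 11 comparisons of 9 genes, 11 of 99 differences passed the threshold and 0 of these reversed under any alternative. The comparisons that held these calls called between 1.42% and 42.5% of all tested genes. They reuse the same libraries, so the 99 differences are not separate results. Without the 2 libraries that stood apart (16 libraries), the members called numbered 1 in the N2 response (rde-4), 2 in the averaged response (rrf-2, nrde-3), 2 in lin-65 on EV (with hrde-1) and 5 in met-2 on EV (with rrf-1 and rde-1), where 18.5%, 13.7%, 3.41% and 49.1% of all genes were called. DESeq2 gave 1 in the averaged response (5.88% of all genes). With the groups compared alone there were 1 in the N2 response, 0 in lin-65 on EV and 5 in met-2 on EV (20.4%, 0.361% and 47.9% of all genes), and removal of the transcript length trend also gave 5 there (33.4%). In lin-65 against N2 over both diets, 2 members (rrf-2 and hrde-1) were called by DESeq2, with the replicate block, in 16 libraries, with either length trend removed and with the groups alone, where 4.11% to 6.6% of all genes were called. Removal of the 3' UTR trend gave 4 in met-2 over both diets (44.5%). The cause was not tested. Leaving out 1 library moved the averaged response between 0 and 2 members and lin-65 over both diets between 1 and 2. The higher value in both came without the first met-2 cco-1 RNAi library. The share of all genes called in that fit, also named above for hrde-1, nrde-3 and rrf-2, is not given here. In 16 libraries, which also leave it out, that share was 13.7% in the averaged response, against 4.08% in the main fit. Per-length levels with plain library totals moved by more than the SD in 8 of 54 cases, all on cco-1 RNAi, where rrf-2 stood at 0.454 CPM per kb in N2 and 2.51 in lin-65, rde-4 at 74.8 and 104, nrde-3 at 3.57 and 3.42, and ergo-1 at 9.72 and hrde-1 at 51.2 in lin-65. The main fit did not take replicate numbers to pair libraries. Over 45 same-numbered pairs r ran from -0.282 to 0.687 (median 0.0982), and 22 were over 0.1. Of 90 differently numbered pairs 21 were over 0.1 (median -0.0381). Same-numbered libraries were thus somewhat more alike, and what they share was not tested. The replicate block added 2 member calls, hrde-1 in lin-65 over both diets (adjusted p = 0.0394) and rde-4 in met-2 over both diets (0.0393), and lost none. It called 4.65% and 42.5% of all genes in these comparisons, against 3.92% and 39.9% in the main fit. Calls over all genes in the N2 response went from 127 to 2828 in 16 libraries, 2860 with the groups alone, 547 by DESeq2, 224 with the 3' UTR trend removed and 200 with the block. rrf-2 in N2 rests on 11 to 40 counts a library, which limits the precision of its folds.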
